A study of Mus musculus with 56 samples.

Results

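The genes described here are those whose difference between nucleus accumbens and prefrontal cortex varied most from one mouse strain to another. For each of 20 inbred strains with both regions, the log2 cortical intensity of a gene was taken from its log2 accumbens intensity, and the 8811 named genes above log2 5 on at least 13 arrays were ranked by the standard deviation (SD) of their 20 differences. The 100 genes with the highest SD, of 8811, were the members. They were thus chosen by the spread of the measured region differences themselves, so those sizes are given as a description, with no test.

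The series measured RNA of naive male mice aged 8 to 10 weeks on Affymetrix whole-genome expression arrays. It held 27 accumbens arrays and 29 cortical arrays, each made from RNA pooled over 3 mice, with 1 array for each strain and region. The accumbens was punched and the cortex was removed as a wedge from adjacent coronal slices of the same brains. The 20 strains used were SWR/J, C57BL/6J, KK/HlJ, 129S1/SvImJ, SM/J, BTBR T+ tf/J, NOD/LtJ, A/J, RIIIS/J, CBA/J, SJL/J, FVB/NJ, AKR/J, P/J, DBA/2J, NZW/LacJ, C3H/HeJ, PL/J, BUB/BnJ and I/LnJ, none of which carried a treatment in the labels. MA/MyJ, BALB/cByJ, NON/LtJ, CE/J, WSB/EiJ, C57BR/cdJ and C58/J also had both regions and were left out by the rule, and MRL/MpJ and NZO/HILtJ had a cortical array only. With 1 pool for each strain and region, the difference in a single strain has no replicate, and the SD over strains holds biological, dissection and array variation together.

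The accumbens belongs to the ventral striatum and is built mainly of GABAergic medium spiny neurons that receive dopamine. The prefrontal cortex is built mainly of layered glutamatergic neurons with scattered interneurons, and its outer face is covered by the meninges, whose fibroblasts make collagens and other matrix proteins. A punch or a wedge therefore also holds vessels, glia and whatever tissue borders it, such as white matter, septum or a ventricle with its choroid plexus. In such bulk samples fewer cells of a type and less RNA per cell cannot be told apart.

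Some strains stood apart before any gene was considered. SWR/J held the farthest difference from the median in 13.3% of the 8811 genes and I/LnJ in 12.0%, and the SWR/J cortex had the highest 3′ minus 5′ signal of the Actb control probe sets, 2.62 log2 units against a cortical median of 1.73. I/LnJ had the lowest accumbens minus cortex difference of the medium spiny neuron list, 3.91, where the median was 4.34. For all 20 strains the accumbens array, taken as deviations from the regional medians over 10684 features, correlated best with the cortex of its own strain (r of 0.30 to 0.68), among 27 candidates. Closest to a tie in that direction was BTBR T+ tf/J, whose accumbens correlated 0.46 with its own cortex and 0.41 with that of C57BR/cdJ. Taken from the cortex, C3H/HeJ came closest, since its cortex correlated 0.33 with its own accumbens and 0.32 with that of CBA/J. Among 84 features that differed strongly between strains, the 2 regions of C3H/HeJ lay more than 35% of the strain range apart in 21 and those of DBA/2J in 20, against a median of 10. The BTBR T+ tf/J cortex correlated 0.73 with the cortex of C57BR/cdJ, a left-out strain, and 0.46 with its own accumbens. What produced these departures was not tested. Counts without C3H/HeJ and DBA/2J, or without I/LnJ and SWR/J, are given beside part of the results. BTBR T+ tf/J was left out only in the runs that left out 1 strain.

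The member SD ran from 0.72 to 2.27 log2 units with a median of 0.87, against a median of 0.24 over all 8811 genes. The lowest included gene was Crocc with an SD of 0.72, and the first genes outside were Arc (0.72), Col11a1 (0.72), Crhbp (0.72), Sox2ot (0.71) and Pdxdc1 (0.71), so the border was not a gap. Of the 100 members, 70 were on average lower in accumbens and 30 higher. The accumbens arrays were the more variable ones for 59 members and the cortical arrays for 41. In 59 members the mean of at least 1 region lay below log2 5, where array values carry little signal, 44 of them in accumbens and 22 in cortex. With all values under log2 5 raised to 5 the median member SD was 0.74, against 0.23 over all genes, and 63 of the 100 stayed among the top 100.

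**Figure D1:**
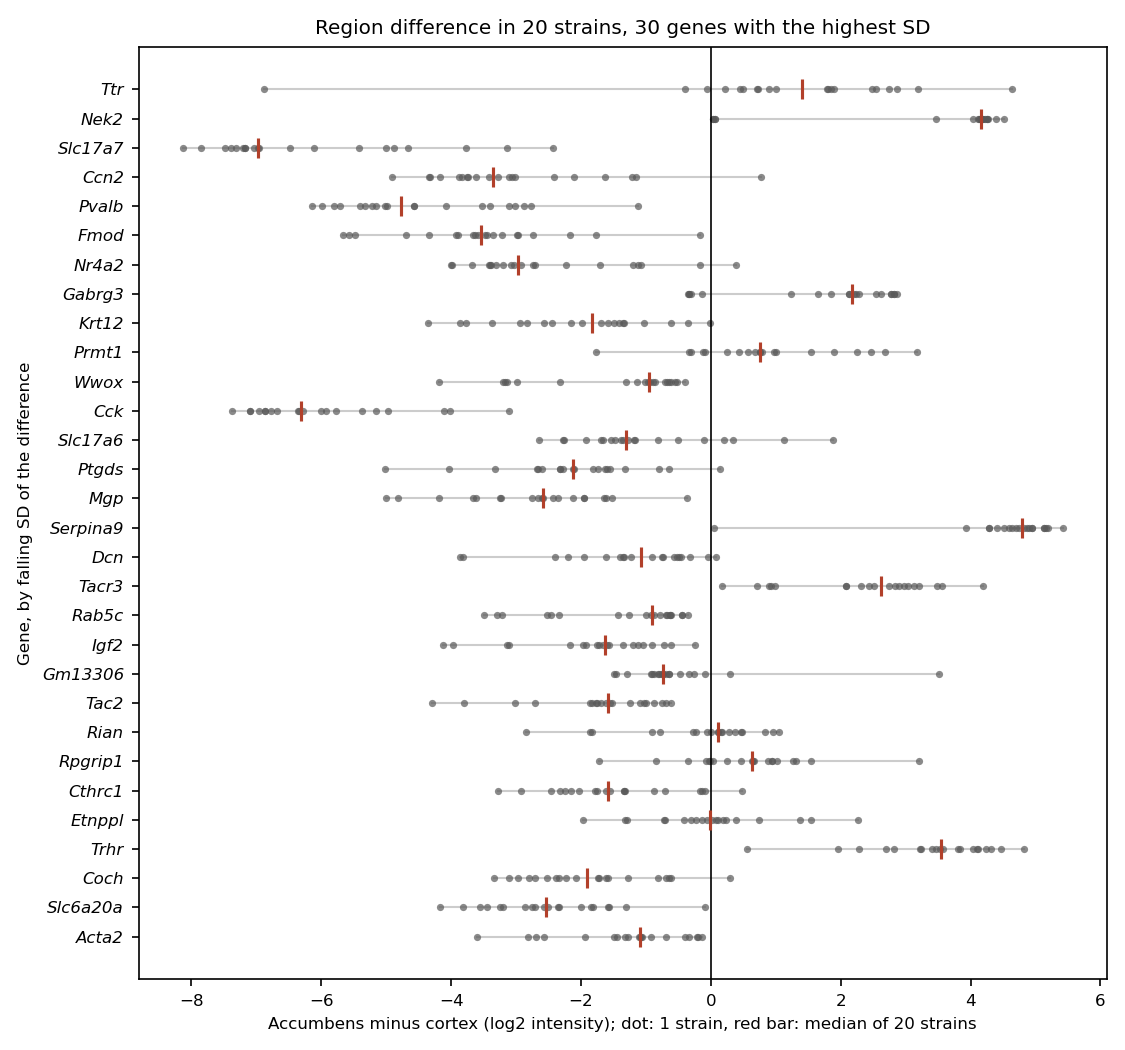
Accumbens minus cortex difference (log2 intensity, horizontal axis) of the 30 genes with the highest SD. Each dot is 1 of 20 strains and each red bar is the median; Ttr runs from −6.88 to 4.63, and Slc17a7 stays below 0 in every strain.

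The differences changed in size, and in part of the members also in direction. In 56 of 100 members all 20 strains had the same sign, before values were raised to log2 5. The same share over all genes was not computed. With values raised to log2 5, 13 members were at least 1 log2 unit higher in accumbens in some strain and at least 1 unit lower in another, against 0.295% of all 8811 genes. On the same scale the difference spanned at least 2 log2 units over strains in 73 members, against 3.05% of all genes. In 34 members the accumbens and cortical arrays did not overlap, beside 21.4% of all genes. Each of these shares follows in part from a ranking on the SD and is read no further.

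Members made up 1.13% of all genes, and their share of the gene lists for cell types differed. Of 9 measured meningeal fibroblast genes, 8 were members: Ptgds, Mgp, Dcn, Igf2, Aldh1a2, Igfbp2, Col1a2 and Gjb2, and the list's median SD was 0.89. Of 18 cortical excitatory neuron genes, 6 were members, and of 8 septal and ventral forebrain genes, 4. The 25 medium spiny neuron genes held 1 member, Scn4b, with a median SD of 0.31 for that list, and the 17 immediate early genes held 1, Btg2. The 12 microglial genes, 13 clock genes and 9 heat shock genes held none; with lists this short, a share of 1.13% would also give few or none.

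The average region difference of those lists was tested with limma over the 20 strains, in which 49.9% of all 10684 features were higher and 33.6% lower in accumbens at an adjusted p under 0.05. All 25 medium spiny neuron genes and all 16 oligodendrocyte genes were higher in accumbens, with median differences of 4.63 and 1.31. With values raised to log2 5 these medians were 3.63 and 1.30. Any medium spiny neuron gene below log2 5 on every cortical array passed the filter through accumbens alone, which fixed its direction. All 9 meningeal fibroblast genes were lower, with a median of −2.39, or −0.68 with values raised to log2 5. Mgp, Col1a2, Gjb2 and Aldh1a2 were below log2 5 on every accumbens array and passed the filter through cortex alone, so their direction was fixed by it. Of 18 cortical excitatory genes 16 were lower, with a median of −2.66, or −1.44 with values raised to log2 5. Microglial genes were higher in 9 of 12 and lower in 1, and immediate early genes were lower in 15 of 17. By their value distributions the 2 regions appear to have been normalized apart, so a shift shared by all genes of a region and the normalization cannot be told apart. After quantile normalization over both regions the counts were 4373 higher and 4469 lower of 10680, while the medium spiny neuron, oligodendrocyte, meningeal and cortical counts just given were the same.

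**Figure D2:**
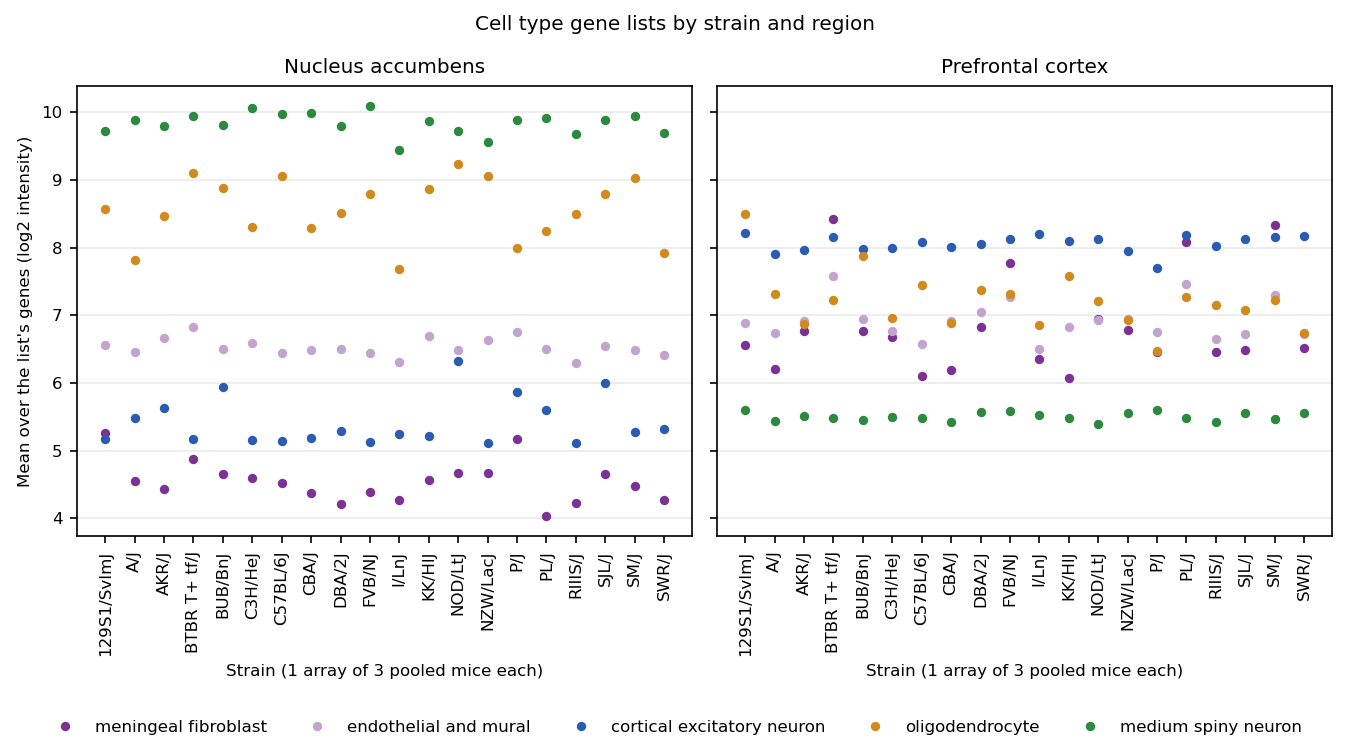
Mean log2 intensity over the genes of 5 cell type lists (vertical axis) in accumbens (left) and cortex (right) of each strain. The cortical neuron list varies more in accumbens than in cortex, with NOD/LtJ highest at 6.32, and the meningeal list varies more in cortex, with BTBR T+ tf/J highest at 8.43.

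Genes of the meninges and of vascular smooth muscle formed 1 group of members. Most of them had a higher SD over strains in cortex than in accumbens. Mgp, Col1a2, Gjb2, Aldh1a2 and Myl9 were below log2 5 on all 20 accumbens arrays, where strain variation could not be seen. Among genes above log2 5 on every array, Acta2 varied more in cortex (SD 0.98 against 0.30) and Ptgds more in accumbens (1.11 against 0.42). Averaged over its 9 genes, the meningeal list ran from 4.04 to 5.26 in accumbens and from 6.08 to 8.43 in cortex, so that no accumbens array reached any cortical array. The SD over strains was 0.31 in accumbens and 0.73 in cortex. Its region difference ran from −4.04 in PL/J to −1.28 in P/J.

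Fmod, the collagen-binding proteoglycan fibromodulin, was at 3.08, 3.31 and 6.03 in accumbens (lowest, median and highest) and at 5.49, 6.83 and 8.86 in cortex. Cortical values above 8 came from BTBR T+ tf/J (8.86), SM/J (8.80), PL/J (8.74) and FVB/NJ (8.01), and the 2 accumbens arrays above 5 were those of 129S1/SvImJ (6.03) and P/J (5.09). The Fmod difference therefore ran from −5.66 in PL/J to −0.17 in 129S1/SvImJ, or from −3.86 to −0.17 with values raised to log2 5. The regions overlapped through the accumbens of 129S1/SvImJ.

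Mgp, the matrix calcification inhibitor, was at 2.73, 3.62 and 4.92 in accumbens and at 5.18, 6.16 and 8.61 in cortex, and the regions did not overlap. Its 4 cortical values above log2 7 were those of SM/J (8.61), BTBR T+ tf/J (8.53), PL/J (8.44) and FVB/NJ (7.49). The same 4 strains were the highest of the 20 for Dcn, the small matrix proteoglycan decorin. Dcn was at 3.19, 4.07 and 5.09 in accumbens and at 3.99, 5.20 and 7.48 in cortex, with differences down to −3.87 in PL/J, or −2.48 with values raised to log2 5. Igf2, the imprinted growth factor, was at 4.71, 5.46 and 6.92 in accumbens and at 6.32, 7.06 and 9.62 in cortex, again highest in BTBR T+ tf/J, and its difference ran from −4.13 to −0.24. Cortical arrays outside the 20 strains included high and low ones. Mgp was at 8.73 in C57BR/cdJ, 8.71 in MRL/MpJ, 7.76 in BALB/cByJ and 7.65 in CE/J, and at 5.34 in MA/MyJ, 4.99 in C58/J and 4.04 in WSB/EiJ.

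Col1a2, a chain of type I collagen, Gjb2, a connexin of the arachnoid, and Aldh1a2, which makes retinoic acid, stayed below log2 5 on all 20 accumbens arrays and reached 7.49, 6.93 and 7.30 in cortex. Acta2, smooth muscle actin, was at 5.91, 6.47 and 7.26 in accumbens and at 6.50, 7.57 and 9.95 in cortex, with the 4 highest cortical values in the strains named for Mgp (BTBR T+ tf/J 9.95, PL/J 9.70, FVB/NJ 9.05 and SM/J 8.89). Its difference ran from −3.60 in PL/J to −0.13 in C57BL/6J.

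Ptgds, the prostaglandin D synthase that is abundant in arachnoid cells and also made by oligodendrocytes, varied mainly in accumbens, with an SD over strains of 1.11 there and 0.42 in cortex; of the meningeal members Igfbp2, a binding protein of insulin-like growth factors, also varied more in accumbens (SD 0.61) than in cortex (0.51). Ptgds was at 9.36, 11.58 and 13.76 in accumbens and at 12.90, 13.53 and 14.45 in cortex. PL/J (9.36) and DBA/2J (9.46) had the lowest accumbens values and 129S1/SvImJ the highest, and the difference ran from −5.01 in PL/J to 0.14 in 129S1/SvImJ. In its second probe set the PL/J difference was −6.66.

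How these genes moved together was described with slopes. For each cell type list the mean region difference over the list's genes served as a score, and limma tested the slope of every gene outside the list on that score over the 20 strains, with Benjamini-Hochberg adjustment over all features. A slope of 1 means that the gene's region difference rose by 1 log2 unit for each unit of the score. Gene and score come from the same arrays, so a departure of 1 array enters both. The slopes use the same 20 differences whose SD ranked the members, and genes with a large SD have more to fit, so a larger share of calls among the members than among all features follows in part from the ranking and is read no further, on this score and on those that follow. Of the 12 genes in the endothelial and mural score, Acta2 (SD 0.97) and Myl9 (0.88) were members, against a median SD of 0.28 for that list. The score thus rests in part on genes picked by these differences, and its slopes are a description. On it, 11 of 98 members outside that list had a slope at an adjusted p under 0.05, beside 0.347% of all features. These were the matrix and meningeal genes Dcn (slope 3.80 ± 0.40 SE, limma adjusted p = 2.87e-05), Col1a2 (2.82 ± 0.31, 2.87e-05), Mgp (3.79 ± 0.48), Gjb2 (2.69 ± 0.35), Igf2 (3.42 ± 0.47), Pcolce, Aldh1a2, Igfbp2, Fn1 and Fmod, and the dicarboxylate transporter Slc13a3. Of the 11, 8 kept the call whichever strain was left out; Fn1 lost it in 2 of 20 runs (highest adjusted p 0.0533, without SM/J), Igfbp2 in 11 (0.208, without PL/J) and Fmod in 15 (0.261, without PL/J). The run without BTBR T+ tf/J was among those in which Igfbp2 and Fmod lost it. All 11 kept the call with values raised to log2 5. Mgp, Col1a2, Gjb2 and Aldh1a2 were below that level on every accumbens array, so with raised values their differences rest on cortex alone. The count over all features was 37, and 20 without PL/J.

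The meningeal list was added as a score after its members had been seen, and 8 of its 9 genes had been picked by these differences, so its slopes are a description. On it, 7 of 92 members outside the list passed the same threshold, beside 0.272% of all features. Pcolce, the enhancer of procollagen processing, had a slope of 1.10 ± 0.08 SE, and Fmod had one of 1.42 ± 0.17. The smooth muscle genes Acta2 (slope 0.99 ± 0.14) and Myl9 (0.85 ± 0.15), fibronectin (Fn1, 0.80 ± 0.11), Slc13a3 (0.80 ± 0.10) and the proline transporter Slc6a20a (0.96 ± 0.16) followed. Without PL/J, Myl9 no longer passed, and the count over all features was 16 instead of 29.

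**Figure D3:**
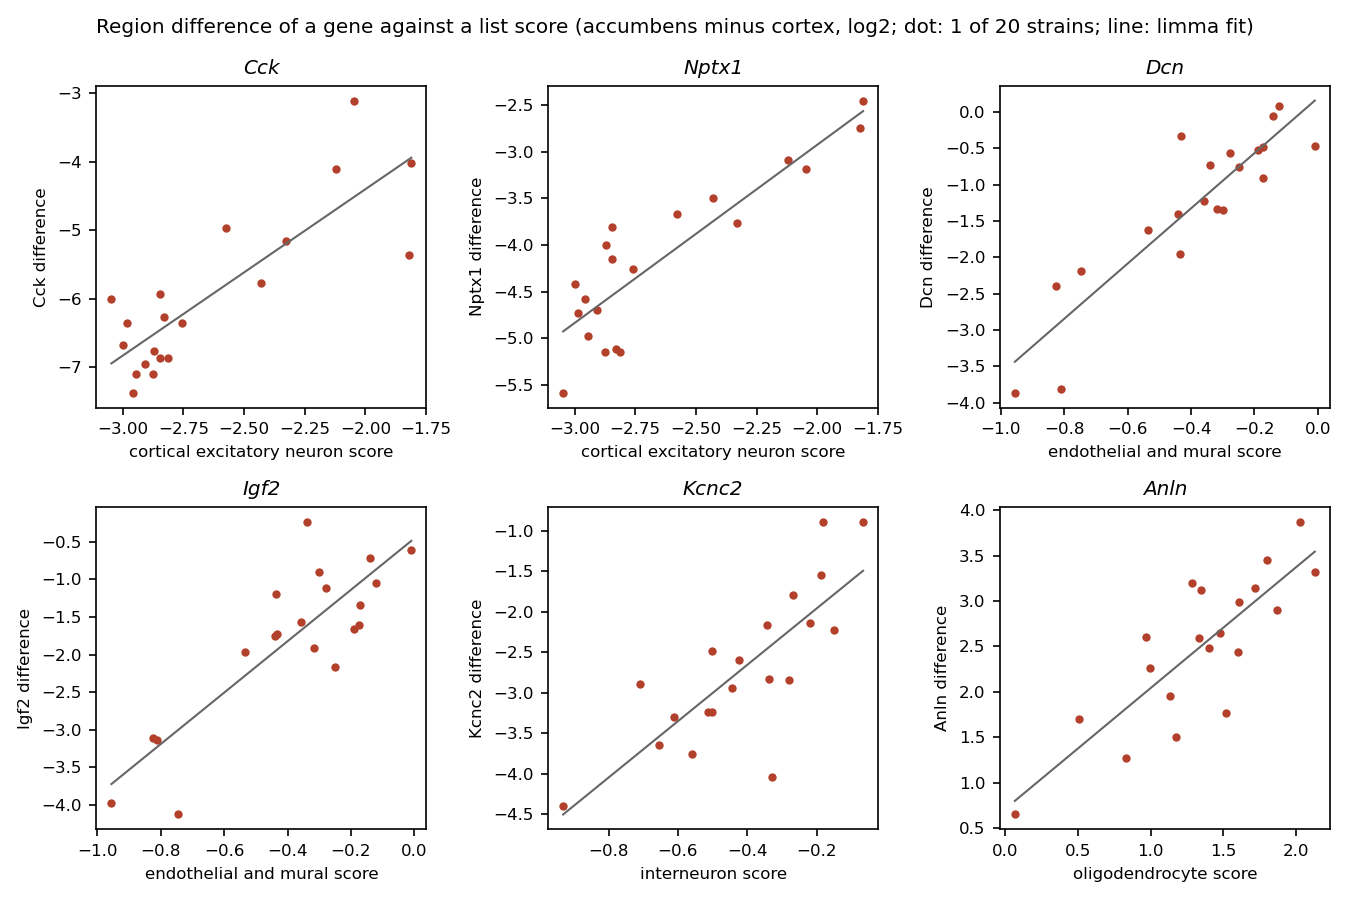
Region difference of 6 genes (vertical axes, log2 accumbens minus cortex) against the score of a cell type list in the same strains (horizontal axes, log2), 1 dot for each of 20 strains, with the limma line. Dcn and Igf2 follow the endothelial and mural score with slopes of 3.80 and 3.42, Cck and Nptx1 the cortical excitatory neuron score with 2.43 and 1.91, Kcnc2 the interneuron score with 3.48 and Anln the oligodendrocyte score with 1.33.

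Genes of cortical glutamatergic neurons made up the second group, and here the variation lay in the accumbens. The 18 listed genes averaged from 5.12 to 6.32 in accumbens, with an SD over strains of 0.36, and from 7.69 to 8.22 in cortex, with an SD of 0.13. The smallest region difference was that of NOD/LtJ, −1.81, and the largest that of 129S1/SvImJ, −3.05.

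Slc17a7, the vesicular glutamate transporter of cortical excitatory neurons, was at 2.71, 2.96 and 7.57 in accumbens and at 8.47, 10.14 and 11.06 in cortex. Above log2 5 in accumbens were BUB/BnJ (7.57), NOD/LtJ (7.06), SJL/J (6.09), P/J (6.02), AKR/J (5.63) and PL/J (5.17), and the other 14 strains were below 4. The regions did not overlap, and the difference ran from −8.13 in I/LnJ to −2.43 in BUB/BnJ, or from −6.06 to −2.43 with values raised to log2 5. Tbr1, a transcription factor of deep-layer cortical neurons, was at 3.56, 3.92 and 6.63 in accumbens and at 8.34, 8.78 and 9.07 in cortex. Its 4 highest accumbens values were those of NOD/LtJ (6.63), P/J (5.73), BUB/BnJ (5.70) and SJL/J (5.39).

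Cck, the neuropeptide cholecystokinin, which cortical neurons express strongly, was at 4.56, 5.40 and 8.52 in accumbens and at 11.49, 11.86 and 12.05 in cortex. Its highest accumbens values were again those of BUB/BnJ (8.52), NOD/LtJ (8.02) and SJL/J (7.93), with differences of −3.11, −4.02 and −4.11 in those strains, where the median was −6.31. Nrn1, the activity-regulated neurite protein neuritin, was at 2.49, 3.30 and 5.46 in accumbens and at 9.73, 10.25 and 10.57 in cortex, and with values raised to log2 5 its SD fell to 0.24, since nearly all accumbens values were below that level.

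Nr4a2 and Ccn2, both known from neurons of the deepest cortical layer, stood highest in the accumbens of NOD/LtJ. Nr4a2 was at 3.19, 3.36 and 6.39 in accumbens and at 5.35, 6.35 and 7.45 in cortex, and Ccn2 was at 2.72, 3.06 and 6.75 in accumbens and at 5.75, 6.40 and 8.28 in cortex. In NOD/LtJ the accumbens was the higher region for both genes, by 0.38 for Nr4a2 and 0.77 for Ccn2, and in the other 19 strains it was the lower one.

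Of the 18 genes in the cortical excitatory neuron score, 6 were members picked by these differences, so the slopes on it are a description. On this score, 5 of 94 members outside that list were called, beside 0.197% of all features. Ccn3, a matricellular protein, had a slope of 2.11 ± 0.24 SE (limma adjusted p = 4.75e-05), Nptx1, a synaptic pentraxin, one of 1.91 ± 0.22 (6.90e-05) and Cck one of 2.43 ± 0.35 (0.000528). These 3 kept the call in all 20 runs that left out a strain, but with values raised to log2 5 only Nptx1 of the 5 kept it (adjusted p = 0.0378, against 0.156 for Ccn3 and 0.222 for Cck), among 3 called features in all. Vxn (slope 1.50) lost it without NOD/LtJ (adjusted p = 0.0677), and Hs3st2, a heparan sulphate sulphotransferase (slope 1.52), lost it without NOD/LtJ (0.357) and without BUB/BnJ. The count over all features was 21, 12 without NOD/LtJ, 32 without I/LnJ and SWR/J, and 2 without NOD/LtJ, SJL/J, P/J and BUB/BnJ, the 4 strains that carry most of the range of this score.

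Rorb, a nuclear receptor of neurons in the middle cortical layers, varied mainly in cortex. Rorb was at 4.57, 6.17 and 6.90 in accumbens and at 3.33, 6.83 and 7.51 in cortex, where NZW/LacJ (3.33) and P/J (3.75) were far below the others. In its second probe set the difference in NZW/LacJ was −1.14, close to that set's median of −0.86, so the NZW/LacJ value of 1.45 was not seen there.

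Pvalb and Tac2 were the 2 members among 13 interneuron genes. Pvalb, the calcium buffer of fast-spiking interneurons, was at 2.51, 4.10 and 7.61 in accumbens and at 7.82, 8.69 and 9.10 in cortex, without overlap. FVB/NJ had the highest accumbens value, and with values raised to log2 5, which 13 accumbens arrays did not reach, the difference ran from −4.10 to −1.12 and its SD was 0.66. Tac2, which encodes neurokinin B in the mouse, ran from 2.01 to 5.84 in accumbens and from 4.98 to 6.48 in cortex.

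Kcnc2 and Elavl4, which are on no list, and Slc17a6, on the olfactory and neuroblast list, were highest in other strains. Kcnc2, a potassium channel subunit of fast-spiking neurons, was at 4.58, 6.07 and 7.84 in accumbens and at 8.62, 8.96 and 9.32 in cortex. I/LnJ (7.84), SWR/J (7.78) and NOD/LtJ (7.36) had its highest accumbens values among the 20 strains. Slc17a6, the vesicular glutamate transporter of subcortical neurons such as those of the thalamus, was at 2.86, 3.63 and 6.32 in accumbens and at 4.04, 5.14 and 5.79 in cortex, with SWR/J (6.32) and I/LnJ (5.96) highest in accumbens. It was higher in accumbens than in cortex in 4 strains and lower in 16. Elavl4, a neuronal RNA-binding protein, was at 5.04, 6.31 and 7.79 in accumbens and at 8.95, 9.27 and 9.54 in cortex, with SWR/J (7.79) and I/LnJ (7.69) highest in accumbens.

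Among the left-out strains, Kcnc2 was at 9.19 in the accumbens of BALB/cByJ, 8.55 in NON/LtJ, 8.50 in CE/J and 8.28 in WSB/EiJ, all above the 20-strain maximum. Slc17a6 was at 8.66 in the accumbens of BALB/cByJ and 7.62 in CE/J. Of the 100 members, 21 lay above the range of the 20 strains in BALB/cByJ, 21 in NON/LtJ, 16 in CE/J and 11 in WSB/EiJ, beside 23.5%, 15.9%, 13.2% and 9.18% of all 8811 genes. In either direction 26 members lay outside that range in BALB/cByJ and 25 in NON/LtJ, beside 44.4% and 26.9% of all genes.

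Of the 13 genes in the interneuron score, Pvalb (SD 1.34) and Tac2 (1.01) were members picked by these differences, against a list median of 0.46. They were below log2 5 on 13 and 17 of 20 accumbens arrays, so the slopes on this score are a description. On the interneuron score, 6 of 98 members outside the list were called, beside 0.347% of all features: Kcnc2 (slope 3.48 ± 0.59 SE, limma adjusted p = 0.00869), Tmem178 (3.31 ± 0.59, 0.0124), the nuclear receptor Esrrg (2.73), Nrip3 (2.54), Car10 (3.10) and Slc17a6 (3.77). With values raised to log2 5 none of the 6 kept the call (adjusted p of 0.131 for Kcnc2 and 0.258 for Tmem178), with 1 called feature in all, while all 27 strains gave 3672. Only Tmem178 kept the call in all 20 runs that left out a strain. Without SM/J, which had the lowest score, the adjusted p of Kcnc2 was 0.0567, the members called were 1 and all features called were 10, against 37 with it. Without I/LnJ and SWR/J together, 1 member was called as well, and Kcnc2 had an adjusted p of 0.0552.

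Several members that mark the accumbens and its neighbours were far higher there than in cortex. The septal and ventral forebrain list was mixed, with 4 of 8 genes higher in accumbens and 2 lower, beside 49.9% and 33.6% of all features. Its members Zic1 and Matn2 had mean differences of 0.05 and −0.10. Zic1 varied slightly more in cortex (SD 0.53 against 0.47) and Matn2 more in accumbens (1.02 against 0.26). Cartpt, Trhr, Calcr, Npy2r and Tacr3 were below log2 5 on every cortical array, so the filter fixed their direction. Strain variation in cortex could not be seen at that level, so whether these genes vary more in accumbens cannot be told. Cartpt, the peptide precursor of CART, was at 6.40, 9.25 and 10.05 in accumbens and at 1.75, 1.77 and 1.86 in cortex, so the regions lay wholly apart. BTBR T+ tf/J had the lowest accumbens value (6.40), followed by SJL/J (7.53). Trhr, the receptor for thyrotropin-releasing hormone, was at 3.74, 6.99 and 8.24 in accumbens and at 3.00, 3.21 and 3.94 in cortex, and BTBR T+ tf/J was again the lowest, with a difference of 0 where the median was 1.99, with values raised to log2 5, since every cortical array was below that level.

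Calcr, the calcitonin receptor, was at 4.65, 7.01 and 8.18 in accumbens, lowest in NOD/LtJ and P/J (5.33), and at 2.40, 2.44 and 2.49 in cortex. Npy2r, a neuropeptide Y receptor, was at 4.52, 6.32 and 7.26 in accumbens, lowest in C57BL/6J and NOD/LtJ (4.75), and at 2.89, 2.96 and 3.21 in cortex. Tacr3, the neurokinin B receptor, was at 3.18, 5.55 and 7.16 in accumbens, lowest in PL/J and SM/J (3.61), and at 2.88, 2.98 and 3.98 in cortex. Different strains were thus lowest for different genes of this group. Scn4b, the sodium channel subunit that was the only medium spiny neuron member, was at 8.83, 10.12 and 11.07 in accumbens, against a lowest value of 5.60 and a median of 6.41 in cortex, without overlap, and its difference stayed between 2.37 in NZW/LacJ and 4.89 in C57BL/6J. No member outside the list was called on the medium spiny neuron score, beside 0.188% of all features (20), and without I/LnJ, which had the lowest score, 0 features were called.

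Myelin genes differed in size from strain to strain. The 16 oligodendrocyte genes averaged from 7.69 to 9.24 in accumbens and from 6.47 to 8.50 in cortex. Their region difference was smallest in 129S1/SvImJ (0.06), whose cortex was the highest of the 20, and largest in NZW/LacJ (2.13). Mog, a surface protein of myelin, was at 5.98, 7.60 and 8.55 in accumbens and at 4.69, 5.84 and 7.79 in cortex, and 129S1/SvImJ was the only strain in which it was not higher in accumbens (−0.12). Anln, the actin-binding protein anillin, which myelinating cells also express, had a slope of 1.33 ± 0.20 SE on the oligodendrocyte score (limma adjusted p = 0.000738). Of the 16 genes in that score, Mog was a member picked by these differences, and Anln itself passed the filter through accumbens. The slope is therefore a description. Anln was the only one of the tested members called on that score, beside 0.45% of all features, and its highest adjusted p when a strain was left out was 0.0274, without 129S1/SvImJ. With values raised to log2 5, which all 20 cortical arrays were below, it lost the call (slope 0.52, adjusted p = 0.661). Gfap, the astrocyte filament protein, was at 3.97, 5.11 and 7.03 in accumbens and at 6.24, 6.87 and 7.39 in cortex, and its difference, with values raised to log2 5, ran from −2.39 to −0.08 in AKR/J.

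Ttr, transthyretin, the thyroid hormone carrier made in the brain by choroid plexus, had the highest SD of all genes. Ttr was at 3.33, 4.98 and 7.64 in accumbens and at 3.01, 3.19 and 10.53 in cortex. The value of 10.53 was that of SM/J, and the next cortical array, 129S1/SvImJ, was at 5.40. The difference was −6.88 in SM/J and 4.63 in A/J, or −5.53 and 2.64 with values raised to log2 5. The second Ttr probe set gave −6.95 in SM/J. Without SM/J the SD was 1.29 instead of 2.27. Of the 2 measured genes of the choroid plexus list, only Ttr was a member. The other, Clic6, had a mean difference of 4.67 ± 0.10 SE.

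A further set of members showed distinct levels between strains mainly in 1 region. For Nek2, Gabrg3 and Serpina9 every cortical array was below log2 5, and for Wwox 19 of 20 accumbens arrays were. At that level a region carries little signal, so a strain pattern in it could not be seen. With values raised to log2 5 the SD ranks of these 4 genes were 307, 485, 174 and 2. Nek2, a mitotic kinase, was at 1.81 to 1.83 in the accumbens of I/LnJ, CBA/J, DBA/2J and BTBR T+ tf/J and at 6.10 or more in that of the other 16 strains, while no cortical array passed 2.68. Gabrg3, a subunit of the GABA-A receptor, was at 2.28 to 2.50 in the accumbens of NZW/LacJ, I/LnJ, P/J, KK/HlJ and SJL/J, against a median of 5.46 and a highest value of 6.20 there, and at 2.61, 3.07 and 4.20 in cortex. Serpina9, a serine protease inhibitor, was at 2.21 in the accumbens of FVB/NJ against 6.07 or more in the other 19 strains, and at 2.11 to 2.23 in cortex. Its SD without FVB/NJ was 0.38, against 1.12 with it.

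Wwox, an oxidoreductase with WW domains, was at 4.56, 4.63 and 5.21 in accumbens and at 5.03, 5.53 and 8.89 in cortex. Above log2 7 in cortex were 129S1/SvImJ (8.89), CBA/J (7.81), DBA/2J (7.80), SM/J (7.78), RIIIS/J (7.68) and SWR/J (7.53). Rab5c, an endosomal GTPase, was at 5.10, 5.28 and 5.74 in accumbens and at 5.61, 6.25 and 8.70 in cortex, with I/LnJ (8.70), C57BL/6J (8.63), A/J (8.48), KK/HlJ (8.05), NOD/LtJ (7.87) and C3H/HeJ (7.60) above log2 7. No strain was above log2 7 for both genes. Btg2, an antiproliferative immediate early gene, varied in both regions and was at 4.54, 5.53 and 7.12 in accumbens and at 2.61, 6.12 and 7.60 in cortex, where SJL/J (2.61) and SWR/J (3.29) were the low arrays. Fank1, known for expression in testis, was at 8.16, 8.89 and 12.00 in accumbens and at 8.20, 9.16 and 9.61 in cortex. The A/J accumbens alone was high, and the SD without A/J was 0.41, against 0.83 with it.

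**Figure D4:**
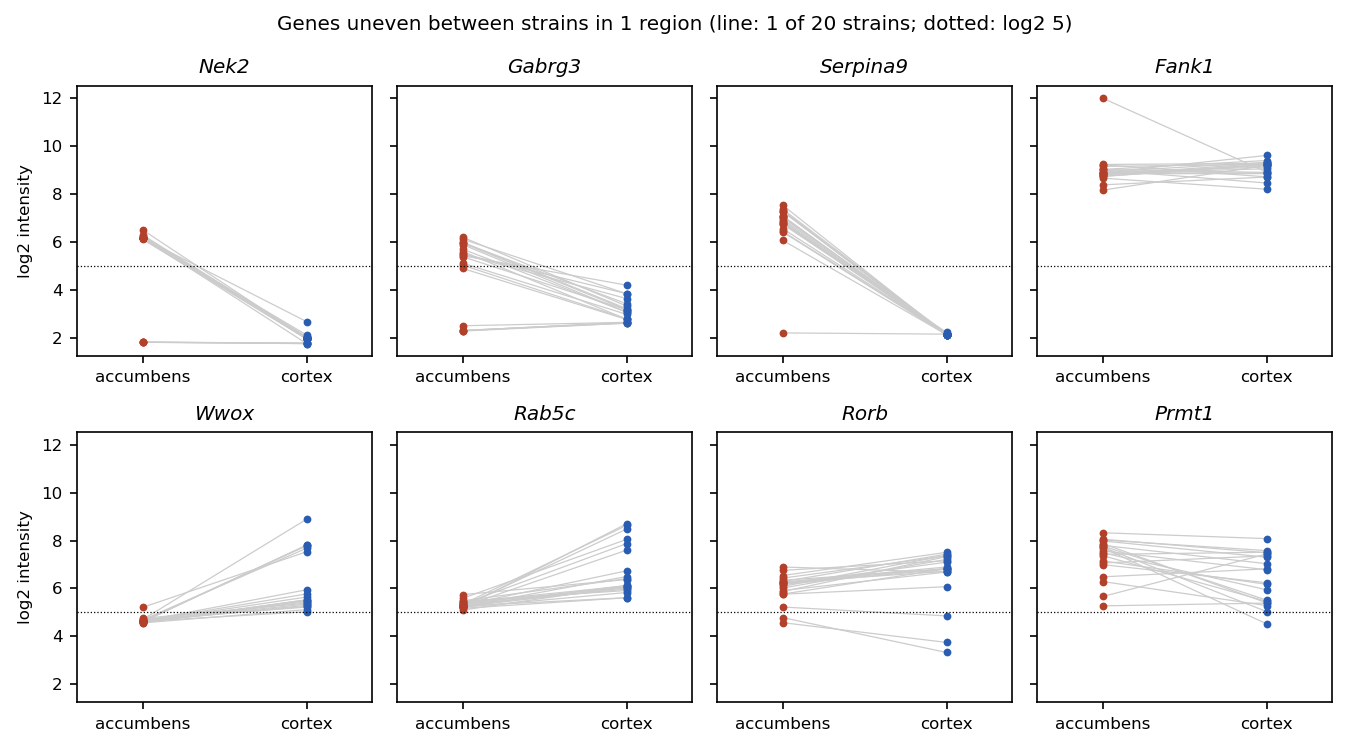
Log2 intensity (vertical axis) of 8 genes in accumbens and cortex, with 1 line for each of 20 strains and a dotted line at log2 5. Nek2, Gabrg3, Serpina9 and Fank1 differ between strains in accumbens, Wwox, Rab5c and Rorb in cortex, and Prmt1 in both.

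The 13 members that changed sign were Ttr, Prmt1, Fank1, Rpgrip1, Resp18, Rian, Gm13306, Kcnj4, Magi1, Zic1, Phgdh, Itih3 and Shh, and their differences are given with values raised to log2 5. Prmt1, an arginine methyltransferase, was at 5.27, 7.53 and 8.32 in accumbens and at 4.52, 6.51 and 8.08 in cortex, and its difference ran from −1.77 in SWR/J to 2.70 in C3H/HeJ. Rpgrip1, a protein of the photoreceptor cilium, ran from −1.73 in DBA/2J to 2.25 in C3H/HeJ, and Kcnj4, an inwardly rectifying potassium channel, from −1.31 in SWR/J to 2.22 in C3H/HeJ. Those 3 genes thus had an extreme in C3H/HeJ, whose regions agreed less well than those of most strains.

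Resp18, a secretory protein of endocrine and neuronal cells, was at 6.60, 7.65 and 8.66 in accumbens and at 6.39, 8.66 and 9.13 in cortex, and the difference was 2.27 in SWR/J and −1.68 in C57BL/6J. Shh, the morphogen sonic hedgehog, ran from −1.09 to 1.16, and Itih3, a heavy chain that binds hyaluronan, from −1.13 to 1.67, both highest in SWR/J. Rian, an imprinted noncoding RNA, was at 6.53, 8.21 and 8.93 in accumbens and at 7.35, 8.11 and 9.38 in cortex. NOD/LtJ was lowest in accumbens and highest in cortex, with a difference of −2.85, and −3.18 in the second probe set. Zic1, a transcription factor of the septum and ventral forebrain, ran from −1.54 in C57BL/6J to 1.65 in SWR/J, with −1.66 in C57BL/6J in the second probe set.

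Phgdh, the first enzyme of serine synthesis, was at 2.99, 8.65 and 9.64 in accumbens and at 5.01, 8.16 and 8.54 in cortex, and its low difference of −1.75 in DBA/2J was 0.53 in the second probe set. Magi1, a junctional scaffold, had a difference of 1.53 in I/LnJ and −1.88 in C3H/HeJ, with 0.70 in I/LnJ in the second probe set. Gm13306, a predicted gene, differed far more between strains than between regions, from 3.07 to 11.55 in accumbens and from 3.33 to 11.63 in cortex, and its 1 difference of 1 or more was 2.16 in SWR/J. Without C3H/HeJ and DBA/2J, 11 of the 13 still changed sign, and without I/LnJ and SWR/J, 7 did. Without all 4 strains Ttr, Rian, Itih3, Fank1 and Zic1 still did. Over the 20 strains, 1 direction rested on 1 strain for Ttr (SM/J), Rian (129S1/SvImJ) and Zic1 (C57BL/6J). For Fank1 each direction did, A/J for the high and NOD/LtJ for the low. Itih3 had 4 strains at 1 or more and 2 at −1 or less. Leaving out 1 strain at a time left 9 (without SWR/J) to 13 that changed sign.

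**Figure D5:**
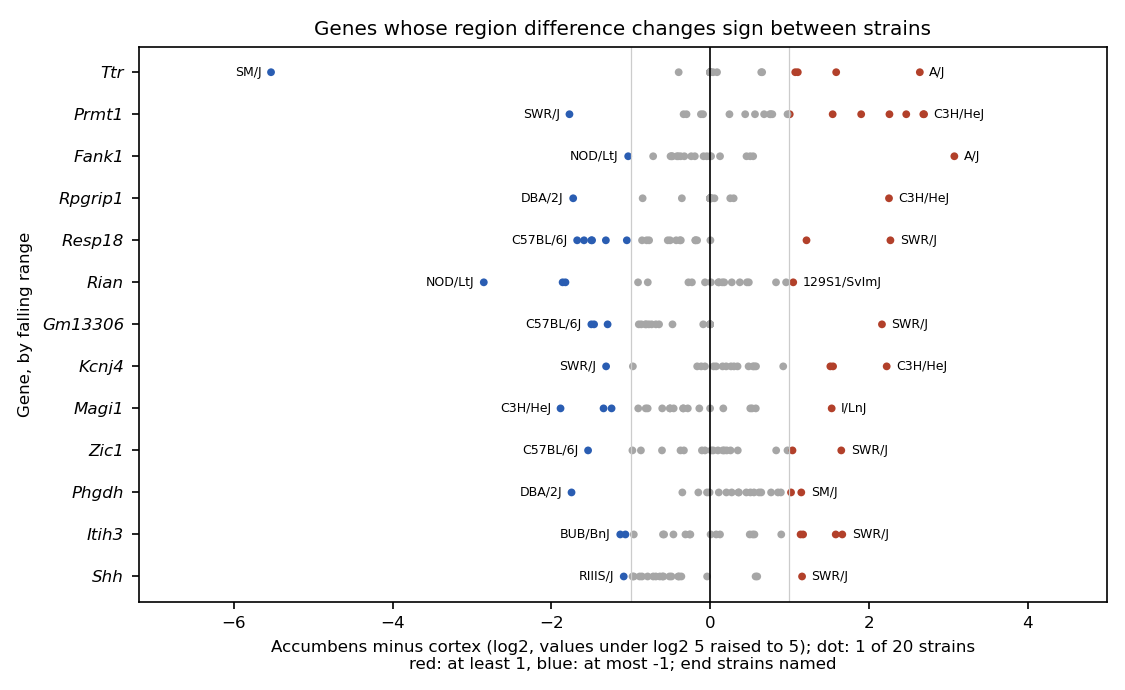
Accumbens minus cortex difference (log2, values under log2 5 raised to 5, horizontal axis) of the 13 genes that change sign. Each dot is 1 of 20 strains, red at 1 or more and blue at −1 or less, and the end strains are named; SWR/J or C3H/HeJ is the highest strain in 8 of the 13.

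Every gene has a strain farthest from its median, and among the 100 members this was NOD/LtJ in 14, against 3.88% of all genes, SM/J in 12 (5.24%), I/LnJ in 11 (12.0%), BTBR T+ tf/J in 9 (6.53%), SWR/J in 9 (13.3%), PL/J in 8 (5.38%) and KK/HlJ in 0 (2.43%). Leaving out any 1 strain kept 92 to 99 of the 100 members. For 19 members a second kept probe set existed, and in 9 of these the same strain was the farthest, beside 14.7% of all genes with a second set. The median correlation of the 20 differences between the 2 probe sets was 0.85 for the members and 0.36 for all such genes, where genes with a small SD have less to correlate.

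By Pearson's r of the 20 differences, described over strains that share arrays, the genes most like Ttr were Txn1 (0.82), Cox5b (0.80) and Ndufab1 (0.78), whose own SDs were 0.18, 0.14 and 0.20. Genes named by r are the highest of a search over all genes. The Ttr SD was 1.29 without SM/J and 2.27 with it, so that strain weighs heavily in its r, and no r without SM/J was computed. Most like Wwox were Gnao1, Gclm and Rph3a (each 0.72), and most like Ptgds were Pdia6 (0.71), Fmod (0.68) and Vmn1r44 (0.66). The scores of the Actb and Gapdh 3′ minus 5′ signals and of the median of all features had no called member, although they had 56, 162 and 1 called features (0.524%, 1.52% and 0.00936%). The astrocyte score had 5 called features (0.0469%), the immediate early score 1 (0.00937%) and the microglial score 0 in limma, with 743 features at an unadjusted p under 0.05, and no member was called on these 3. The septal and ventral forebrain score, added after the data were seen, had 6 called features (0.0562%), of which Ddit4l was the 1 member.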

How the data were processed

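The authors deposited 1 intensity value for each probe set and array; the submitters' processing notes name GCRMA, and the values (from the values themselves, never below 0) are on a linear scale; its version was not stated in what was available here. By their distributions the arrays of each region appear to have been normalized apart, which no label states. Intensities were converted to log2 with no pseudocount. Of 45015 probe sets, 64 were controls, 34880 carried 1 gene symbol and 923 several, by the platform annotation. The 16056 probe sets above log2 5 on at least 13 of the 54 arrays of strains with both regions were kept, and a gene was its brightest kept probe set. This gave 8811 genes and 1873 unnamed features, 10684 in all. The median intensity of an array ran from 9.66 to 10.43 on the linear scale. Arrays have no read depth, and their number limits the precision. Of the members, 8 were measured by probe sets of the x type and 3 by sets of the s type, in which some probes can match other transcripts; Ttr, Fmod, Tacr3, Acta2, Phgdh and Slc13a3 are among them.

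The difference between regions was taken within each strain, because the design text of the series places both regions of a strain in the same brains. limma 3.58.1 in R 4.3.3 (lmFit, eBayes, Benjamini-Hochberg) tested the mean difference and the slopes on list scores; tables and plots used Python 3.11.15 with numpy 2.4.6, pandas 2.3.3 and matplotlib 3.10.9. The fits were tested on simulated data. The rule for named genes, of which the text names part, took the 30 members with the highest SD, the members that change sign, the 5 with the smallest adjusted p on each score, up to 4 genes of each list and the genes at the border of the ranking; further members called on a score and Elavl4, Npy2r, Nnat, Fxyd2 and Ptgs2 were chosen after their values were seen. The members and lists were chosen with earlier results of these data known. Alternatives were a floor at log2 5, a filter at log2 7, quantile normalization over both regions, all 27 strains, the probe set with the highest SD, and leaving out strains. P-values measure the spread between strains, since no strain has a replicate pool.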

Additional observations from a re-analysis of the deposited data

Results flagged for a closer look

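For 13 members the region difference took opposite directions in different strains, by at least 1 log2 unit each way with values under log2 5 raised to 5. The distance between the highest and the lowest strain was 8.17 log2 units for Ttr, 4.47 for Prmt1, 4.11 for Fank1, 3.98 for Rpgrip1, 3.95 for Resp18, 3.90 for Rian, 3.66 for Gm13306, 3.53 for Kcnj4, 3.42 for Magi1, 3.19 for Zic1, 2.89 for Phgdh, 2.80 for Itih3 and 2.25 for Shh. Each direction in a strain rests on 1 array for each region, so the difference between strains was not tested. Second probe sets gave the same extreme strain for Ttr, Rian and Zic1 and another for Phgdh and Magi1.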

How the results depend on the processing

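Each strain is 1 block of 2 arrays. With no replicate block, 5095 features were higher and 3412 lower in accumbens, against 5332 and 3595 with it. Of the 100 members, 63 stayed among the top 100 with values under log2 5 raised to 5, 44 with a filter at log2 7, 51 with all 27 strains and 58 with the probe set of highest SD. The filter at log2 7, with fewer features tested, gave 2976 higher and 2108 lower, and slope calls of 42 (medium spiny neuron), 56 (interneuron), 21 (oligodendrocyte), 9 (astrocyte) and 10 (endothelial and mural), against 20, 37, 48, 5 and 37. With all 27 strains the slope calls were 2772 (medium spiny neuron), 3672 (interneuron), 131 (oligodendrocyte), 3366 (astrocyte) and 3496 (immediate early), where BALB/cByJ and NON/LtJ lie outside the range of the others in many genes. With the floor they were 3 on the cortical excitatory score and 1 on the interneuron score. Quantile normalization gave 2 on the astrocyte score and 0 on the immediate early score. Without NOD/LtJ, SJL/J, P/J and BUB/BnJ they were 2 (cortical excitatory), 0 (astrocyte) and 0 (immediate early). Chosen after seeing the data, leaving out C3H/HeJ and DBA/2J gave 5 (medium spiny neuron), 0 and 0 on the last 2, and leaving out I/LnJ and SWR/J gave 0 (medium spiny neuron), 32 (cortical excitatory), 0 and 0. The mean difference turned for Rpgrip1 with the floor (−0.0023) and for Etnppl with the floor (0.0467), all 27 strains (0.46) and without the 4 strains (0.11); the cause was not tested.

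Leaving out 1 strain at a time kept 92 to 99 members, 5266 to 5333 higher and 3554 to 3625 lower features. Slope calls ranged from 0 (without I/LnJ) to 25 on the medium spiny neuron score, from 12 (NOD/LtJ) to 26 on the cortical excitatory, from 10 (SM/J) to 48 on the interneuron, from 34 (129S1/SvImJ) to 52 on the oligodendrocyte, from 0 to 6 on the astrocyte, from 20 (PL/J) to 39 on the endothelial and mural, from 0 to 2 on the immediate early and stayed at 0 on the microglial score. Of the 31 member calls on scores, 20 held with the floor, and 12 of the 15 measured with the filter at log2 7. Signals near background limit 59 members.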

Other observations

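Some variable members belonged to none of the groups above. Krt12, a keratin known from the cornea, was at 2.07, 2.52 and 5.99 in accumbens (lowest, median and highest of 20) and at 2.48, 5.79 and 7.02 in cortex, with the highest value of both regions in P/J. Nnat, the imprinted gene neuronatin, was at 9.82, 10.91 and 11.40 in accumbens and at 6.54, 8.11 and 9.45 in cortex, with no overlap, and its difference was 0.38 in BTBR T+ tf/J and 4.36 in A/J. Ptgs2, an inducible cyclooxygenase, was at 3.05, 3.20 and 4.36 in accumbens and at 4.81, 6.46 and 8.15 in cortex, highest in SM/J. Fxyd2, a regulator of the sodium pump, was above 8 in the accumbens of BTBR T+ tf/J (8.42), 129S1/SvImJ (8.39) and KK/HlJ (8.37), with a median of 5.25, and reached 6.90 in cortex, in 129S1/SvImJ.

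On the septal and ventral forebrain score, added after the data were seen, Ddit4l, an inhibitor of mTOR signalling, was the 1 member called, with a slope of −2.35 ± 0.38 SE (limma adjusted p = 0.0166), and it lost the call without BTBR T+ tf/J (0.0994), FVB/NJ or SJL/J. Of the 8 genes in that score, 4 were members picked by these differences, so its slopes are a description. The score had 6 called features, 0.0562%, and 0 without BTBR T+ tf/J, 3 without I/LnJ and SWR/J and 20 without SM/J.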
